A study of Mus musculus with 4 samples.

Results

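The Speer genes described here were 9 members of a mouse gene family named for a testis-associated protein rich in glutamate: the coding genes Speer2, Speer3, Speer4a, Speer4b, Speer4c, Speer4d, Speer4e and Speer4f1, and Speer4cos, an antisense RNA gene that runs across Speer4c on the opposite strand. Their bound regions were all rows of the H1t broad peak list that overlapped, by at least 1 bp, a member's gene body or the 50 kb on either side of it. These regions numbered 77 of the 48681 peaks in the list. Of the 77, 15 overlapped a gene body and 62 lay in the flanks only. The members were picked with this peak list in view, so their numbers of peaks and the heights of those peaks are given as a description and carry no test.

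H1t, the linker histone variant of the testis, was immunoprecipitated from crosslinked chromatin of C57BL6 mice at postnatal day 20 with an antibody to H1t (2 ChIP libraries), and chromatin with no antibody was sequenced as input (2 libraries). The labels call the material testicular cells and also Pachytene cells, and the study describes testicular cells of this age as enriched in pachytene cells, while its ChIP methods name crosslinked testes and no sorting step. At this age the testis holds spermatogonia, Sertoli cells and early meiotic cells beside pachytene spermatocytes, and the contribution of each to the signal was not tested. Peak calling was done once, with both ChIP libraries merged (39221290 fragments after filtering) and both input libraries merged (30377916), so that no value exists for a single library and no replicate error can be given for any peak.

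Linker histones bind the nucleosome where the DNA enters and leaves it and help to fold the chromatin fibre. H1t replaces much of the somatic H1 in meiotic germ cells of males. The Speer genes arose in rodents by repeated duplication. Their proteins consist of a stretch related to part of the scaffold protein Dlg5, and their transcripts are known from the testis. No transcript was measured here.

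Of the 9 members, 8 lay on chromosome 5 and Speer2 lay on chromosome 16. The coding members were short genes of 4771 to 6871 bp, while Speer4cos was 33887 bp long. Because Speer4d, Speer4cos and Speer4c lie close together, their flanks joined into a single window, and the 9 members gave 7 windows. Of the 7 windows, 3 held most of the peaks: 31 around Speer4d, Speer4cos and Speer4c, 20 around Speer4a and 17 around Speer4e. The other 4 windows held 9 peaks between them. The sequences below show what the peaks of the different copies share, since the Speer4 genes are near-identical over long stretches.

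The shortest peak in a coding member lay in intron 4 of Speer4c (chr5:15710447-15710752, 306 bp, minus-strand gene) and reached 11 coding bases into exon 4. Its 295 intronic bases are shown 5′ to 3′ on the sense strand (GRCm38), followed by the bases aligned to them in 4 other Speer4 genes, with capitals marking every base that differs from Speer4c or has no partner in it. The set is shown because the same stretch was under a peak in some copies and not in others.
Speer4c, chr5:15710447-15710741: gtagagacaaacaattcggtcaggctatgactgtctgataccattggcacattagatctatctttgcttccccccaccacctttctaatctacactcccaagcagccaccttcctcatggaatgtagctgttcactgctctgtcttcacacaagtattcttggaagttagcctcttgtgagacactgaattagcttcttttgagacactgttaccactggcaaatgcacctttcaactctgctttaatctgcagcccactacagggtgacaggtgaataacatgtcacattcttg
Speer4d, chr5:15622624-15622918: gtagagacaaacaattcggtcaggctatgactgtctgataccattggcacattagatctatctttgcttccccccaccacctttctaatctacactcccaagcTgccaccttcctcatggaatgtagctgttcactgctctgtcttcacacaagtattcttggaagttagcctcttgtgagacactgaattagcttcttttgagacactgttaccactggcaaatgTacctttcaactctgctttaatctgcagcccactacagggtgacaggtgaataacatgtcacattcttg
Speer4e, chr5:14934625-14934918: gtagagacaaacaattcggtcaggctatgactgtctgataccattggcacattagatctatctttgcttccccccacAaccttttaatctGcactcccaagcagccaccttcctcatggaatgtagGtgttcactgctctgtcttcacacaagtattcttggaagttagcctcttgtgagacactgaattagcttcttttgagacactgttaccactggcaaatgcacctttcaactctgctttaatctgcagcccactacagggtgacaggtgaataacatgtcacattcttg
Speer4a, chr5:26035570-26035865: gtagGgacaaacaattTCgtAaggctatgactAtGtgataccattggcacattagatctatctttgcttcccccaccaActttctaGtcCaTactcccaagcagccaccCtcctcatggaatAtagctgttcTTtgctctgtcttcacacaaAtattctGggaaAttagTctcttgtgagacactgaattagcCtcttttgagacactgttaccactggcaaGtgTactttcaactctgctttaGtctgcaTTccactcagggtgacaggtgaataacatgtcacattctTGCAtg
Speer4f1, chr5:17479582-17479868: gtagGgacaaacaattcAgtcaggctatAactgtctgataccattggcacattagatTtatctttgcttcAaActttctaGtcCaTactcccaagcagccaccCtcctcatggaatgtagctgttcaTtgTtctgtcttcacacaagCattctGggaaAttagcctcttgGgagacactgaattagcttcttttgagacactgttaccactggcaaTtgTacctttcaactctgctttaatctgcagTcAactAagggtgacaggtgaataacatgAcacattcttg

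The Speer4d stretch differed from that of Speer4c at 2 bases (99.3% identity), and 287 of its 295 bases were under a peak of fold 2.08. The Speer4e stretch differed at 3 bases and lacked 1 (99% identity), and none of it was under a peak. Near-identical bases were therefore listed in Speer4c and Speer4d and not in Speer4e. The Speer4a stretch was 91.8% identical to that of Speer4c and lay wholly under a peak of fold 1.77. The Speer4f1 stretch was 92.3% identical and held no peak. The aligned stretch of Speer4b, 92.2% identical, lay wholly under a peak of fold 1.75. In all, 4 of the 6 coding Speer4 genes had a peak over this stretch.

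The second set comes from the flanks. The peak with the smallest q of the 77 (chr5:14940168-14944341, 4174 bp) lay 3.83 kb upstream of the Speer4e start, from start to peak centre, in sequence with no annotated gene. Its central 300 bases are shown on the plus strand, followed by the same stretch in the 3 other peaks of the windows that held it, with capitals marking the bases that differ from the first.
Speer4e upstream peak, chr5:14942105-14942404: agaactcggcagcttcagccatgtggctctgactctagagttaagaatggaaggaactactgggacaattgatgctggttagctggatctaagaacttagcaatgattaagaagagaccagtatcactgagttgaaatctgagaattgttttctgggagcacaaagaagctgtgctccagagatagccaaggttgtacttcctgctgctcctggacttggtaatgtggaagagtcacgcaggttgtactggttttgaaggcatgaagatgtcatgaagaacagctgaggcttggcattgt
peak in the Speer4c flank, chr5:15660689-15660988: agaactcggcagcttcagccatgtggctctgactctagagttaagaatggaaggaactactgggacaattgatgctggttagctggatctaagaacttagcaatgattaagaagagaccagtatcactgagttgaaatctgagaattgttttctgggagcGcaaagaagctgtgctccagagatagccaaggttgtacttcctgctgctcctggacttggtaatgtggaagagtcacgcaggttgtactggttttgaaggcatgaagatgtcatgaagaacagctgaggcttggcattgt
peak downstream of Speer4e, chr5:14918537-14918835: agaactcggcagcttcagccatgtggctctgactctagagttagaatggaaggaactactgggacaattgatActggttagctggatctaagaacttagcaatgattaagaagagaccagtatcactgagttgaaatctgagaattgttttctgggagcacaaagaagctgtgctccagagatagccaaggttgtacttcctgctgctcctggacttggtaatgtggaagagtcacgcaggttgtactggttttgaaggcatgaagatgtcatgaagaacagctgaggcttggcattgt
peak far upstream of Speer4e, chr5:14982517-14982816: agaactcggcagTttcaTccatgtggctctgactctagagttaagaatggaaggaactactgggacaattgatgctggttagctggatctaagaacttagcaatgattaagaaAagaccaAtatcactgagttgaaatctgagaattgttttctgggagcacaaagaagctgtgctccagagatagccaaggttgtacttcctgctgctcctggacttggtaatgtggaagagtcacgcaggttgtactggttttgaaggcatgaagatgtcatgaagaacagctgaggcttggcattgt

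The copy in the Speer4c flank differed from the first at 1 base, the copy downstream of Speer4e at 1 base with 1 base missing, and the copy far upstream of Speer4e at 4 bases. The member nearest to the peak in the Speer4c flank was Speer4cos, 15.9 kb from the peak. Of the 300 bases of the first, 286 were soft-masked as repeat in the genome sequence. In the order shown, the 4 peaks had pileups of 26.2, 22.35, 24.49 and 29.2 ChIP fragments, local backgrounds of 11.2, 12.8, 11.9 and 15.1 fragments and folds of 2.23, 1.69, 1.97 and 1.87. The first had a −log10 q of 2.98, against 0.0878, 0.328 and 0.744 for the other 3. These values are means over whole peaks of 4174, 6493, 1061 and 7179 bp, and none exists for the shared stretch alone. Of the 4 peaks that held the stretch, a single one passed a q of 0.05.

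A peak's pileup is the mean number of ChIP fragments stacked over it, and its fold is that pileup over the local background, the number expected from the input or from the genome as a whole, each with 1 added. The local background was worked back from both values and is approximate, because both are means over the peak. It was called raised where it exceeded the genome-wide value of 4.95 fragments by over 2%, and the lowest pileup in the list was 9.0.

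**Figure D1:**
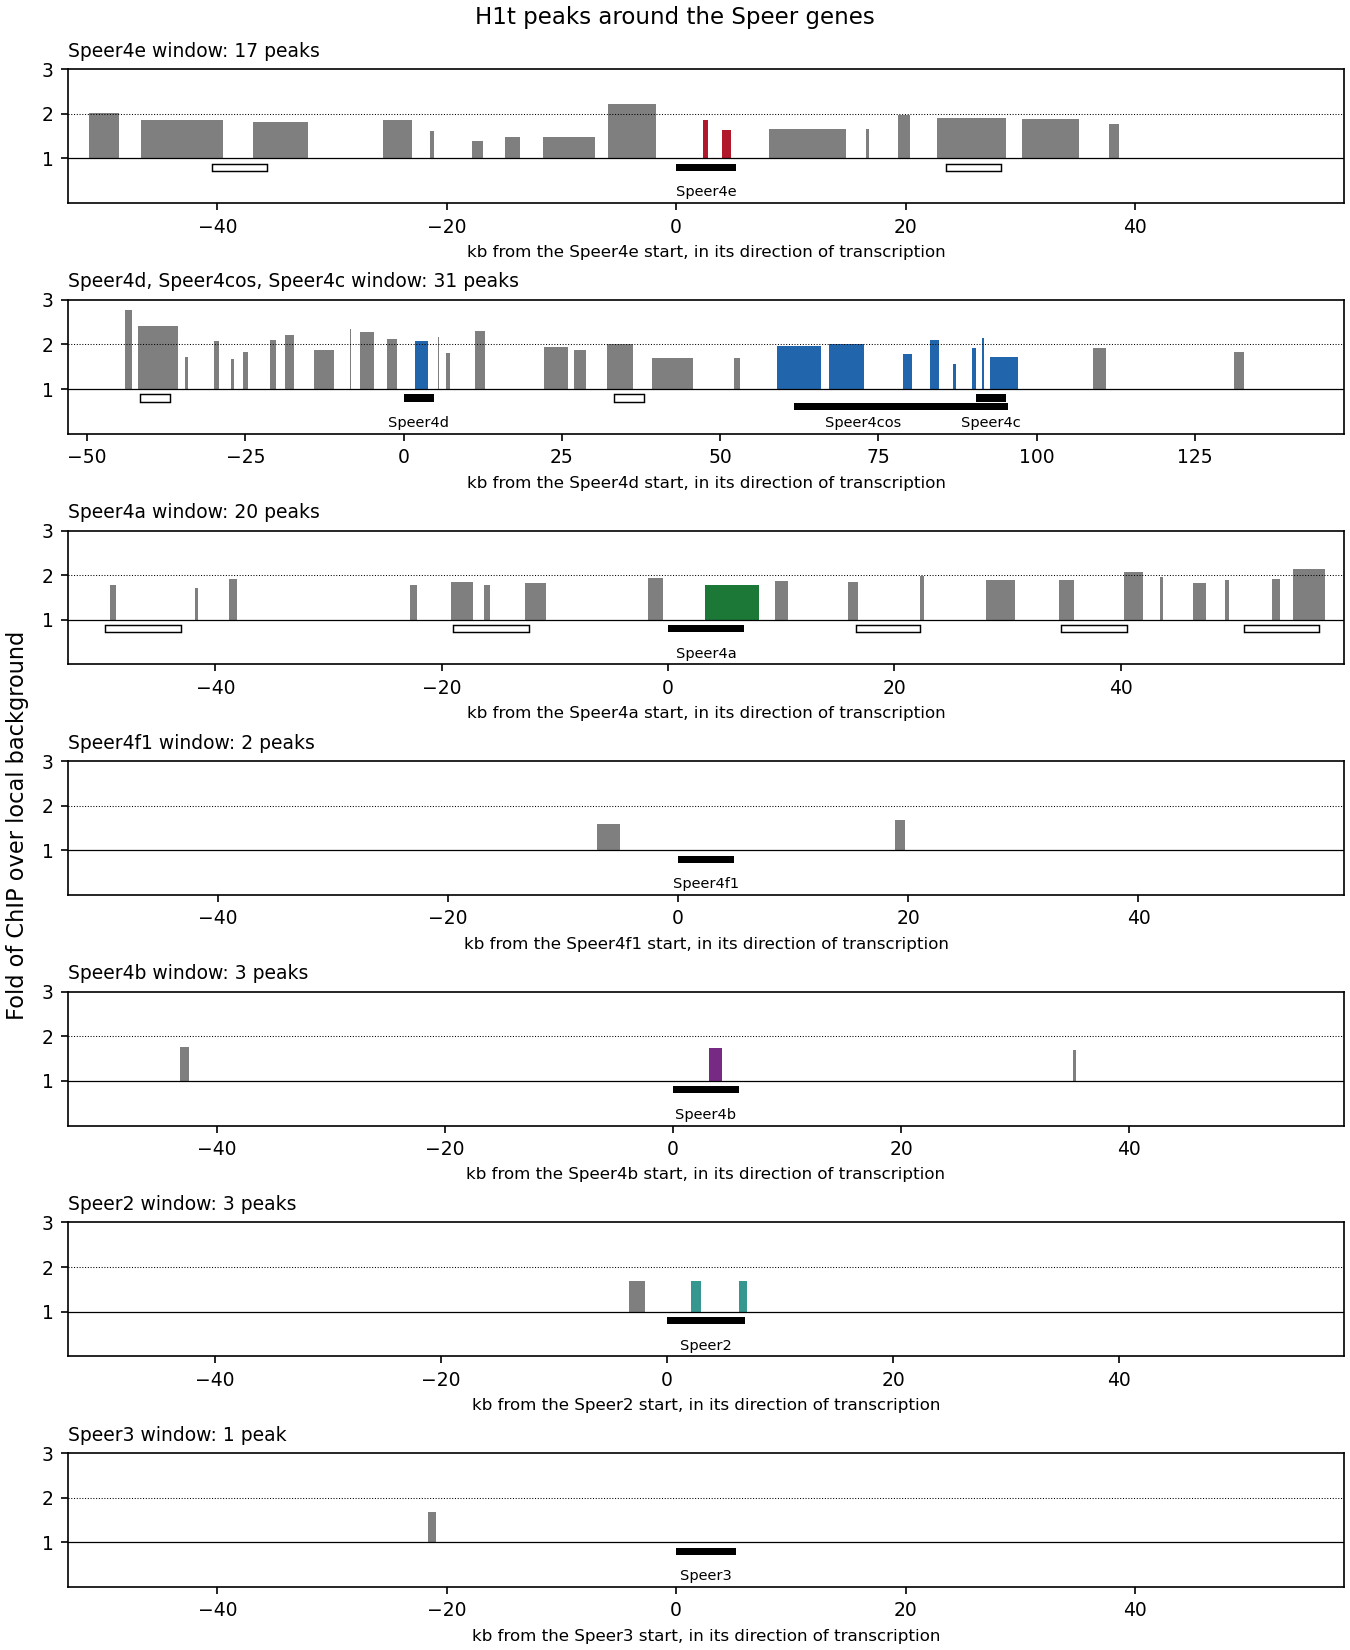
Maps of the 7 windows, with distance from a member's start in kb on the x axis and the fold of ChIP over local background on the y axis (bars start at 1, dotted line at 2). Coloured bars are peaks over a member's gene body, grey bars are flank peaks, black boxes are members and open boxes are the unnamed coding relatives. The windows of Speer4e, of Speer4d, Speer4cos and Speer4c, and of Speer4a hold 17, 31 and 20 peaks, and the other 4 windows hold 1 to 3.

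The members' peaks were wider than those of the whole list, and larger shares of them had a raised background and a fold of at least 2. The median width was 1143 bp for the 77 peaks and 653 bp for all peaks, and 23 of the 77 (29.9%, 95% Wilson interval 20.8 to 40.8) were at least 2 kb wide, against 2.47% of all. The median fold was 1.86 for the 77 peaks and 1.73 for all. A fold of at least 2 was reached by 19 of the 77 (24.7%, 16.4 to 35.4), against 3.64% of all peaks. The local background was raised at 51 of the 77 (66.2%, 55.1 to 75.8), against 21.9% of all. A p under 0.01 was listed for 52 of the 77 (67.5%), against 11.8% of all, and a q under 0.05 for 2, against 0.255% of all. The intervals cover counting error only, and peaks of one window share sequence and background and are not independent.

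The members' peaks held about the same share of masked sequence as the list, fewer CpG pairs and more repeated words. Soft-masked bases made up 33.8% of the bases under the 77 peaks and 33.6% of those under all peaks. In the Speer4e window they made up 38.3% under the peaks and 42.3% of the whole window. The values were 35.0% and 43.0% in the joined window and 21.2% and 29.4% in the Speer4a window. The peaks were more masked than their window at Speer4f1 (42.8% and 34.2%) and Speer2 (51.6% and 40.9%), and less masked at Speer3 and Speer4b. The GC content was 42.1% and 43.5%, and CpG pairs numbered 0.574 and 0.853 per 100 bp. Of repeated sequence the members' peaks held more: 44.6% of the 100-base words that start in the members' peaks occurred again elsewhere in the genome, on either strand, against 12.4% of those in all peaks.

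The Speer4e window was covered most densely. It held 17 peaks in 105 kb, 162 per Mb, against 20.5 per Mb over chromosome 5. Peaks covered 46.0% of its bases, against 1.59% of chromosome 5. All 17 peaks had a raised background, of 8.83 to 25.6 fragments (median 15.2), and pileups of 17.3 to 38.8 (median 28.3). The folds of the 17 were 1.40 to 2.23. High pileups in this window thus stood on high backgrounds.

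Within the body of Speer4e itself, 2 peaks covered 24.4% of the bases. One (chr5:14933607-14934455, 849 bp) lay over the end of the gene, with 429 bases in the UTR and 141 coding bases, and had a pileup of 31.35 and a fold of 1.64. The other (chr5:14935665-14936084, 420 bp) covered 144 coding bases, with 276 bases of intron around them, and had a pileup of 17.26 and a fold of 1.86. No peak covered the Speer4e start. The upstream peak shown above, whose centre lay 3.83 kb from it, had a pileup of 26.2 and a fold of 2.23. A further flank peak of fold 2.02 (chr5:14986960-14989644, 2685 bp) lay 49.9 kb upstream.

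The joined window of Speer4d, Speer4cos and Speer4c held 31 peaks in 196 kb, 159 per Mb, and 33.7% of its bases were under a peak. It held 15 of the 19 peaks of fold at least 2. The background was raised at 25 of the 31, with a range of 4.95 to 17.6 (median 7.17), and pileups were 9.0 to 31.1 (median 15.9). From 24.1 kb downstream of the Speer4d start to the Speer4c start every background was at least 9.0, while on the Speer4d side they were at most 9.42, and the 2 peaks beyond Speer4c lay at 4.95.

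Speer4d had 1 body peak (chr5:15620870-15622910, 2041 bp), which ran from intron 2 through exons 3 and 4 into intron 4 and covered 328 coding bases. Its pileup was 13.85 on a background of 6.13, a fold of 2.08, and it covered 42.5% of the gene. The flank peaks upstream of Speer4d included the highest fold of the 77. That peak (chr5:15575040-15576145, 1106 bp) lay 43.5 kb upstream of the Speer4d start, with 1036 bases in introns and 70 in exons of the antisense RNA genes Gm21847 and Gm30613. It had a pileup of 15.9 on a background of 5.10, a fold of 2.77 and a −log10 q of 1.45. Next to it, a 6320 bp peak of fold 2.42 (chr5:15577165-15583484) covered the whole of Gm21083, an unnamed coding gene whose body resembles the Speer4 genes.

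Upstream of Speer4d, 6 further flank peaks had a fold of at least 2, at 29.5, 20.6, 18.0, 8.42, 5.83 and 1.91 kb from the start, with folds of 2.07, 2.1, 2.21, 2.35, 2.28 and 2.12 in that order. Downstream, peaks at 5.50 and 12.1 kb had folds of 2.17 and 2.31. All 8 lay in introns of Gm21847, and those from 29.5 to 18.0 kb upstream lay in Gm30613 as well. The remaining flank peak of this kind (chr5:15651138-15655298, 4161 bp) had a fold of 2.01 and lay over 4930572O03Rik, another unnamed coding relative.

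Speer4c was the coding member with the most of its body under a peak, 59.8% of its 4771 bp. The intron 4 peak shown above had a pileup of 25.08 on a background of 11.1, a fold of 2.15. The second peak (chr5:15711725-15716185, 4461 bp) ran from intron 2 across the Speer4c start, with 299 coding and 69 UTR bases, and had a pileup of 31.08 on a background of 17.6, a fold of 1.73. It was the only body peak of the 8 coding members that reached past the annotated start of its gene.

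The 250 bases before the Speer4c start lay wholly under that peak, and those of the other 7 coding members held no base under a peak. They are shown for Speer4c and Speer4e, whose upstream sequences start at the same aligned base, as read from the RefSeq promoter table (GRCm38.p6, 8 of 8 coding members matched), 5′ to 3′ on the sense strand with capitals marking the bases that differ from Speer4c.
Speer4c upstream, chr5:15714272-15714521: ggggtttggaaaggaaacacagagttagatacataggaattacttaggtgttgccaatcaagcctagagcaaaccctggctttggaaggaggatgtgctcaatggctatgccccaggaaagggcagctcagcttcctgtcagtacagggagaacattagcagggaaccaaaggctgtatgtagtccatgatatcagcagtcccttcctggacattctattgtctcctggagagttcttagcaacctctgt
Speer4e upstream, chr5:14938476-14938725: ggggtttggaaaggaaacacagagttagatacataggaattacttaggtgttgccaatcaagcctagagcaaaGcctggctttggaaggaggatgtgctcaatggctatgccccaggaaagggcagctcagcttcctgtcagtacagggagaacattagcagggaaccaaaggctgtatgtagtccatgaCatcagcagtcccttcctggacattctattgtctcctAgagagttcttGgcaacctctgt
The Speer4e sequence differed at 4 of the 250 bases (98.4% identity) and was not under a peak. The upstream bases of Speer4d, Speer4b and Speer4a aligned to those of Speer4c at 98.1%, 98.1% and 96.6% identity over 215, 206 and 203 bases. Neither printed sequence held a CpG pair.

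Speer4cos, the antisense RNA gene, had 8 body peaks, of which 2 were the Speer4c peaks and 6 lay outside Speer4c. The peaks covered 49.9% of its 33887 bp. The widest, at 6867 bp (chr5:15678070-15684936), lay across the Speer4cos start, with a pileup of 23.56 and a fold of 1.96. The next (chr5:15686200-15691795, 5596 bp) lay wholly in an intron, with a fold of 2.01. A 1486 bp peak (chr5:15702206-15703691) had a fold of 2.1, and the remaining 3 had folds of 1.56, 1.79 and 1.91. All 8 backgrounds were raised, from 9.0 to 17.6 fragments.

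The Speer4a window held 20 peaks in 107 kb, 187 per Mb, the highest density of the 7, but they were narrower and lower than those of the other crowded windows. Peaks covered 23.0% of the window. Pileups were 9.57 to 14.4 (median 10.6), and the background was raised at 8 of the 20, to at most 7.17. The Speer4a body had 1 peak (chr5:26031508-26036288, 4781 bp), which covered 51.3% of the gene at its end, with 358 coding and 2104 UTR bases, a pileup of 12.28 and a fold of 1.77. The 2 peaks of fold at least 2 in this window lay 56.7 and 41.1 kb downstream of the Speer4a start, with folds of 2.14 and 2.07. The first overlapped Gm21698 and the second Gm1979, both unnamed coding relatives.

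**Figure D2:**
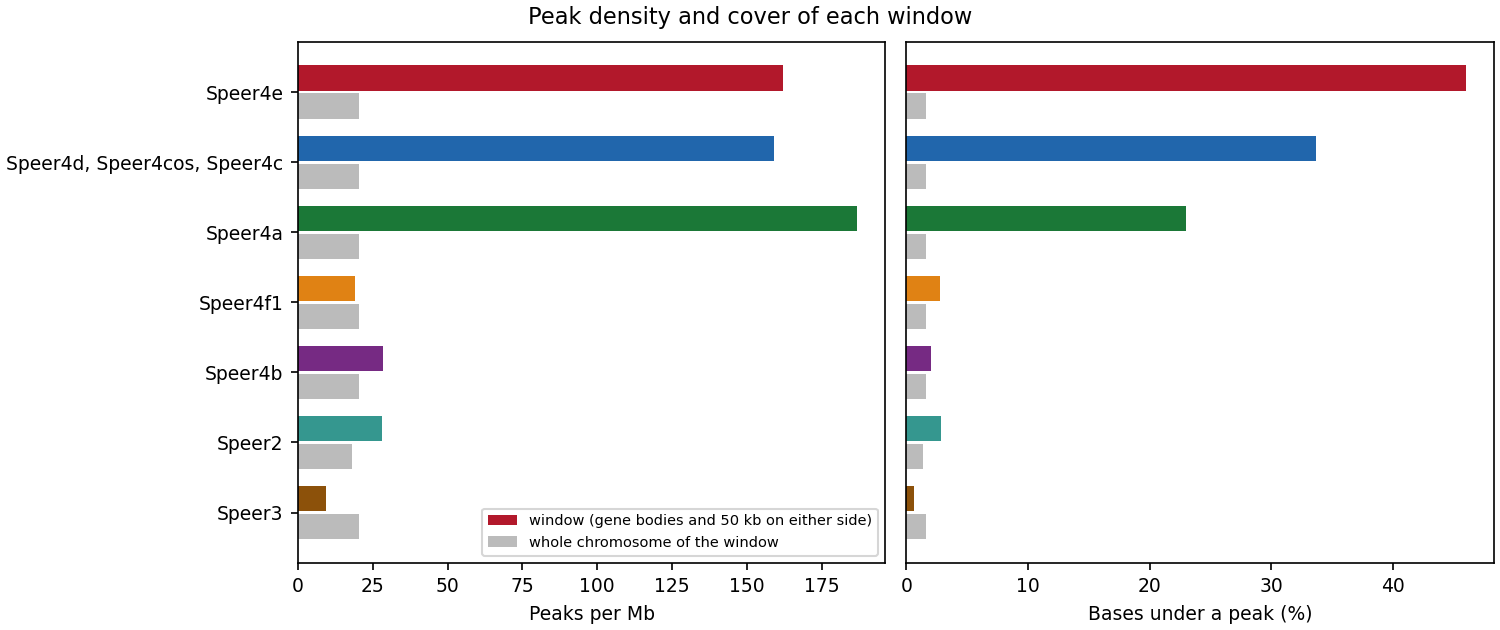
Peaks per Mb (left) and percent of bases under a peak (right) in each window, above the value of its whole chromosome in grey. The windows of Speer4e, of Speer4d, Speer4cos and Speer4c, and of Speer4a reach 162, 159 and 187 peaks per Mb, against 20.5 for chromosome 5.

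The other 4 windows had from 0.463 to 1.54 times the peak density of their chromosomes. Speer4f1 had 2 peaks in its window (19.1 per Mb) and none in its body. Speer4b had 3 (28.4 per Mb) and Speer3 had 1 (9.51 per Mb), against 20.5 per Mb over chromosome 5. Speer2 had 3 (28.1 per Mb), against 18.2 per Mb over chromosome 16. Of these 9 peaks, 8 had pileups of 9.0 to 9.53 and folds of 1.68 to 1.77, at or just above the lowest pileup in the list.

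The exception was the upstream peak of Speer4f1 (chr5:17469006-17471082, 2077 bp), 6.05 kb from the start. It had a pileup of 34.0, among the higher values of the 77, but a background of 21.0 and a fold of 1.59. Speer2 carried 2 body peaks over 21.3% of the gene (chr16:69856681-69857378 at its end, and chr16:69860718-69861676 in an intron with 43 coding bases), with folds of 1.69 and 1.68. Speer4b, which lies antisense in an intron of the neuronal gene Dpp6, carried 1 (chr5:27497144-27498239, 1096 bp) over 18.9% of its body, with a fold of 1.75. Speer3 and Speer4f1 had no peak in the body.

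**Figure D3:**
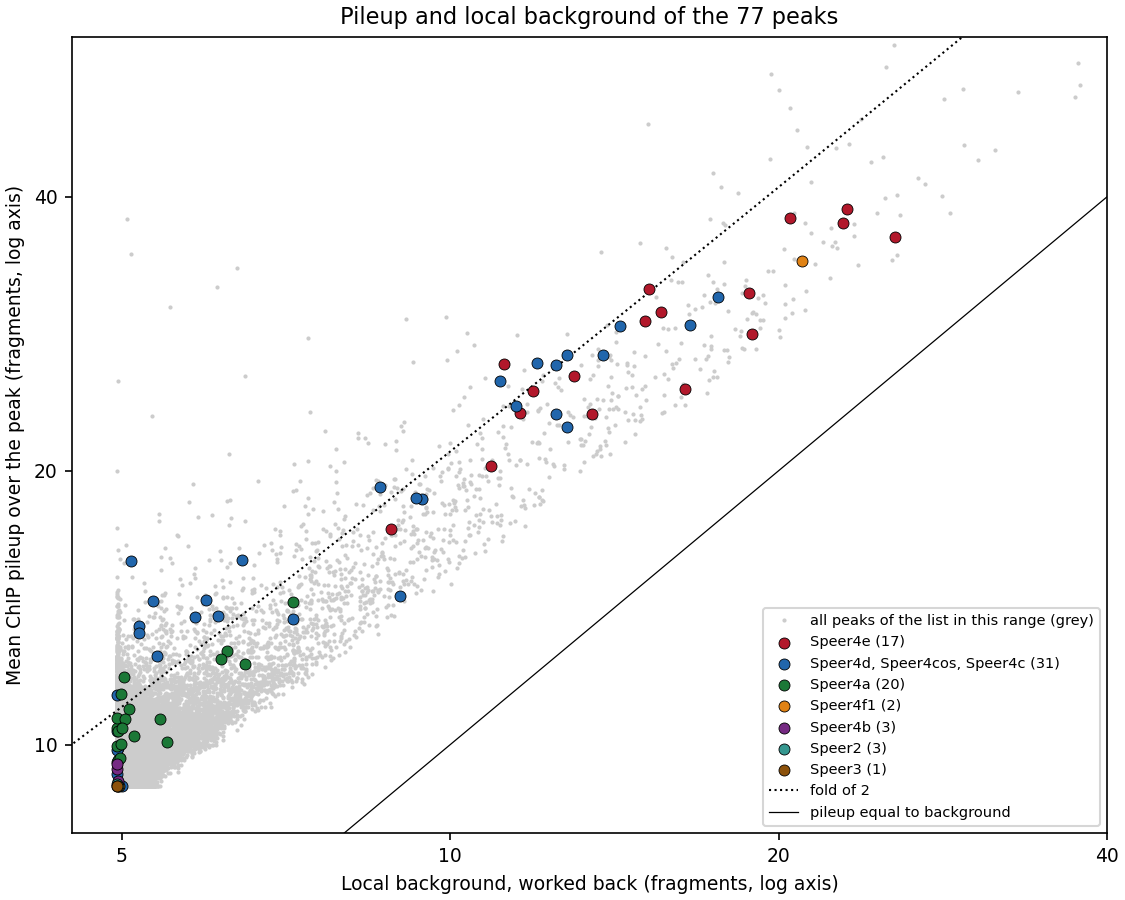
ChIP pileup of each peak (y axis, fragments) against its local background (x axis, fragments), both on log axes, for the 77 peaks coloured by window and for all peaks of the list in this range in grey. The Speer4e peaks lie at backgrounds of 8.83 to 25.6 and the Speer2, Speer3 and Speer4b peaks at 4.95 or 4.96, and 19 of the 77 reach a fold of 2 (dotted line).

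Counted by gene, 7 of the 9 members and 6 of the 8 coding members had a peak in the body. Over all autosomal genes the share was 21.7%, and over those as long as the coding members it was 12.4%. At least 10 peaks lay within the body and flanks of 5 of the 9 members, against 2.24% of autosomal genes, and a peak of fold at least 2 lay there for the same number of members, against 8.25% of autosomal genes. Because the members were chosen from this list, nothing is read from these shares. Speer4d, Speer4cos and Speer4c share one window, and their counts overlap.

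The crowded stretch ran on past some edges of the windows and not past others. At the left edge of the Speer4d window in chromosome coordinates, the peak just inside lay 42.9 kb from the Speer4d body with a fold of 2.77, and the one just outside lay 63.3 kb away with a fold of 2.43 and a pileup of 15.2. At the right edge of the Speer4e window, the peaks just inside and just outside lay 48.5 and 56.0 kb from Speer4e, with folds of 2.02 and 1.76 and pileups of 31.7 each. At the right edge of the joined window, the peak just inside had a pileup of 9.87 and the next peak lay 157 kb from Speer4c, with a pileup of 9.93. The peaks just outside the Speer4a window lay 62.9 and 57.1 kb from Speer4a, with pileups of 9.0 each and folds of 1.62 and 1.68. At the 4 sparse windows the peaks just outside had pileups of 9.0 to 10.2.

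The gene bodies fell into close and distant copies. Among the 6 coding Speer4 genes, aligned bodies were 90.3% to 98.8% identical over 15 pairs. Speer4c and Speer4d were the closest pair, followed by Speer4c and Speer4e at 98.1% and Speer4d and Speer4e at 98.0%, and Speer4a and Speer4b were 95.6% identical. Speer2 and Speer3 were 92.3% identical to each other and 76.0% to 79.1% to the Speer4 genes. The 3 closest members, Speer4c, Speer4d and Speer4e, lay in 2 of the crowded windows. Speer4a lay in a crowded window, and Speer4b, the member closest to it, in a sparse one. The unnamed gene Gm7347, in the Speer4a window, was closer to Speer4a, at 97%.

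Peaks of different copies lay partly over the same aligned positions. On a map of all bodies aligned to Speer4d, intron 4 was under a peak in 6 of the 8 coding members (Speer2, Speer4a, Speer4b, Speer4c, Speer4d and Speer4e), with 42.3% of its aligned bases covered. The 6 did not all cover the same part of it. Speer4a, Speer4b, Speer4c and Speer4d had a peak over the intron 4 stretch shown above, and Speer4e had none there. The intron 4 cover of Speer4e (279 bases) and of Speer2 (152 bases) came from the peak at the end of each gene. Exon 4 was under a peak in 4 of 8, intron 3 in 4 of 8, exon 5 in 3 of 8 and exon 3 in 2 of 8. The bases aligned to exon 1 of Speer4d were under a peak in 2 of 8, Speer2 and Speer4c, and those aligned to exon 2 in Speer4c alone. The Speer2 peak lay inside the gene, with its centre 2.55 kb downstream of the Speer2 start. Among the coding members, Speer4c alone had a peak at its own start. Cover of intron 2 was 22.4% and of intron 1 24.0%. Among the 9 unnamed relatives described below, intron 4 was under a peak in 4, intron 1 in 7 and exon 1 in 6.

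**Figure D4:**
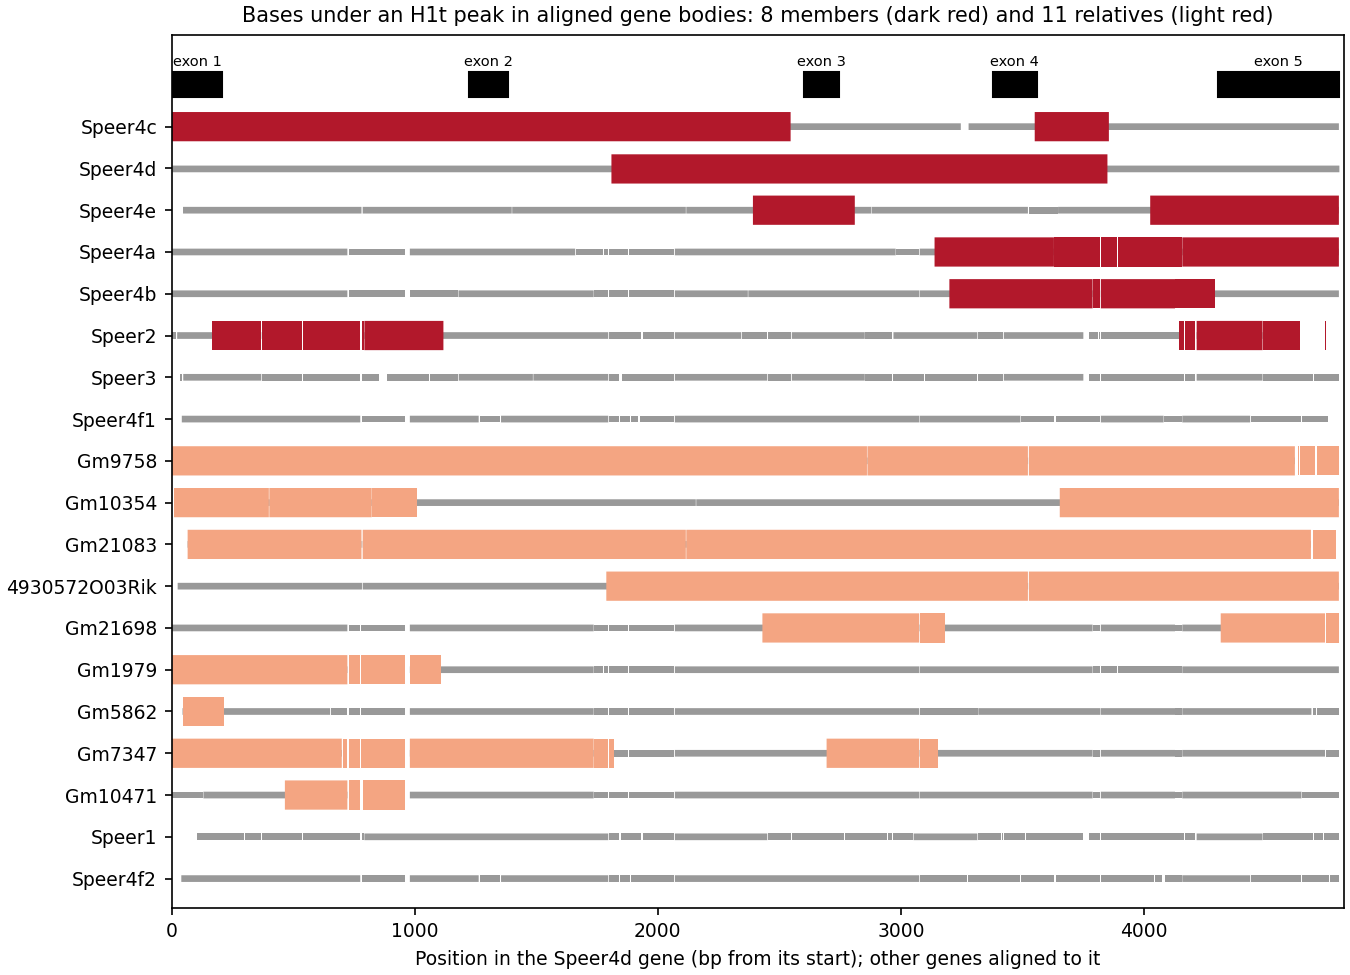
Bases under a peak (bars) along gene bodies aligned to Speer4d, in bp from the Speer4d start, with the Speer4d exons in black at the top. Dark red is the 8 coding members, light red the 9 unnamed relatives and, in the lowest rows, Speer1 and Speer4f2, which have none. The bases aligned to intron 4 carry a peak in 6 of 8 coding members and 4 of 9 unnamed relatives. Those aligned to exon 1 carry one in 2 of 8 and 6 of 9.

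Of the 15 body peaks, 10 held a stretch of at least 100 bases that aligned to another member's body at 90% identity or more. Aligned coding Speer4 bodies were 90.3% to 98.8% identical, so such a match was likely for most parts of them, under a peak or not. The 5 others were Speer4cos peaks outside Speer4c. Among all 77 peaks, 64 shared such a stretch with another of the 77, and 54 with a peak of a different window. Sequence outside the peaks was not counted in the same way, so none of these counts is read as a trait of the peaks. A stretch was shared with any other of the 77 by 16 of 17 peaks of the Speer4e window. The numbers were 27 of 31 in the joined window and 19 of 20 in the Speer4a window. Counting only peaks of a different window, they were 16, 24 and 12 in that order. None of the 4 peaks of the Speer2 and Speer3 windows shared one, and 1 of 3 Speer4b and 1 of 2 Speer4f1 peaks did.

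Repeated sequence made up more of the crowded windows than of the sparse ones. The share of bases at which a 100-base word starts that occurs again in the genome was 38.0% in the Speer4e window, 34.1% in the joined window and 41.3% in the Speer4a window, against 1.64% to 7.55% in the other 4. Within the crowded windows, 42.2% of the repeated bases and 29.3% of the bases with a unique word lay under a peak. Within the sparse windows these shares were 8.01% and 1.85%. Peak cover was higher over repeated than over unique sequence in 6 of the 7 windows, and in the Speer3 window it was lower (0.261% and 0.689%). Over all bases of chromosome 5, repeated or unique, the cover was 1.59%. A word counts as unique here if its exact bases occur once, so near-identical copies can count as unique, and a peak can span both kinds of base. A read that lies wholly in repeated sequence can be placed in more than one copy. The authors sequenced pairs of 150-base reads, and a repeated word of 100 bases can be shorter than the read. With words of 150 bases the repeated share of the peak bases was 28.5%, against 44.0% with 100. The part of such reads in the pileups and backgrounds was not tested.

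**Figure D5:**
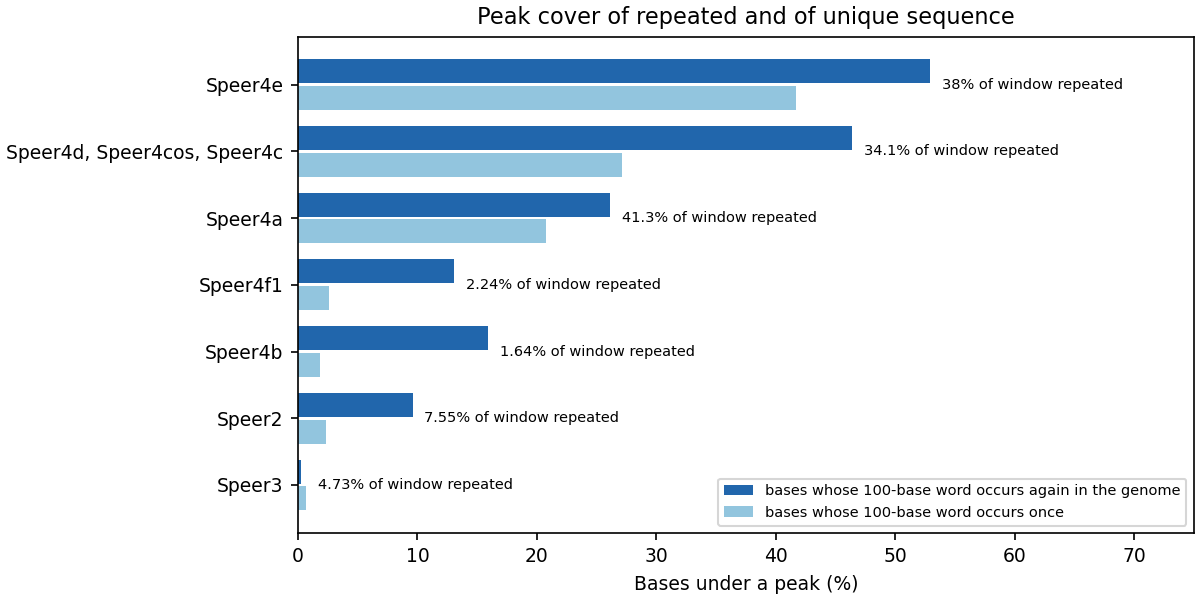
Percent of bases under a peak among bases whose 100-base word occurs again in the genome (dark) and among those whose word occurs once (light), by window. In the Speer4e window the shares are 52.9% and 41.7%, and in the Speer4a window 26.1% and 20.8%.

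The crowded windows also held 9 coding genes without a family name whose bodies resembled the Speer4 genes, each 95.8% to 98.9% identical to its closest member. All 9 had at least 1 body peak, against 12.4% of autosomal genes as long as the coding members. They were picked from windows already dense in peaks, so nothing is read from this count. The share of the body under a peak ran from 3.39% in Gm5862 and 7.22% in Gm10471 to 100% in Gm9758 and Gm21083. Gm9758, in the Speer4e window, lay wholly under a peak of fold 1.91, and Gm21083 under the peak of fold 2.42 described above. Gm10354, also in the Speer4e window, had 2 body peaks with folds up to 1.87. In the Speer4a window, Gm21698, Gm1979, Gm5862, Gm7347 and Gm10471 had 1 to 3 body peaks each. Exon 1 was under a peak in 6 of the 9 relatives, all of them in crowded windows. It was so in 2 of the 8 coding members, Speer4c and Speer2, in Speer2 over 43 of 205 aligned bases. Exon 1 here is that of Speer4d after alignment, and the Speer2 bases lay inside the gene and not at its own start. Speer2, Speer3, Speer4b and Speer4f1 lie in sparse windows, so the relatives and the coding members are not like sets.

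The other genes with a Speer symbol mostly had few peaks. Speer1, 91.8% identical to Speer2 and 91.9% to Speer3, had 0 body peaks and 3 in its window, and Speer4f2, the copy closest to Speer4f1 (96.9% identity), had 0 and 2. Their pileups were 9.0 to 9.96. The pseudogene Speer6-ps1 and Speer9-ps1, annotated as a long noncoding RNA gene, had 0 body peaks, with 1 and 0 in the window. The pseudogene Speer5-ps1 had 2 body peaks and 8 in its window, with folds up to 1.90 and pileups up to 17.1. The most were at Speer8-ps1, annotated by RefSeq inside the Speer4e window, with 7 body peaks and 23 in its body and 50 kb flanks. Dlg5, the gene related to the family, had 2 body peaks over 111968 bp and none in its flanks.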

How the data were processed

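H1t ChIP (2 libraries) and input (2 libraries) came from testes of C57BL6 mice at postnatal day 20. Reads were checked with FastQC 0.11.5 and mapped by the authors to GRCm38.p5 with Bowtie2. MACS2 2.1.2 in broad mode was then run once by the authors over the merged libraries, with an unadjusted p of 0.05 as the limit. The deposited list gives each peak's pileup signal in fragments, the authors' fold (ratio) of that pileup over local background, and the deposited −log10 p and −log10 q. Depth is known for the pools only, and 0 columns of values per sample were left out.

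Gene bodies came from GENCODE vM21 and sequences from GRCm38.p6, whose chromosomes share the coordinates of GRCm38.p5. Overlap needed 1 bp. Local background was the pileup plus 1 over the fold, less 1. Words of 100 bases were counted on both strands over the primary assembly. Sequences were aligned with BLAST 2.17.0 and MAFFT 7.526, in Python 3.11.15 with numpy 2.4.6 and pandas 2.3.3. Word counts and overlaps were tested on simulated data. Shares carry 95% Wilson intervals.

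The members, the list of other family genes and the naming rule were chosen with earlier results of these data known. The rule named all members with every body peak, flank peaks with a fold of at least 2 or a q under 0.05, other genes with a Speer symbol, Dlg5, and genes in which a named peak lay. The unnamed relatives were the other coding genes of the windows whose exons aligned to a member, picked after the peaks were seen. No test was run. Alternatives were stricter fold, p and q limits, other overlap rules, merged peaks, RefSeq bodies, flanks of 25 and 100 kb, other word lengths and other identities.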

Additional observations from a re-analysis of the deposited data

How the results depend on the processing

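No paired analysis was possible because the peaks were called once on pooled libraries, and for the same reason no library could be left out. Requiring the peak centre or at least 50% of the peak inside the region, or RefSeq gene bodies, left all counts at 15, 7 and 77 and the density at 4.58 to 4.60 times that of the same chromosomes (4.58 as reported, and 4.59 against all autosomes). With a fold of at least 2, 4 peaks lay in gene bodies, in 3 members, and 19 in bodies and flanks, at 26.9 times the density of such peaks on the same chromosomes. With p under 0.01 these values were 10, 4, 52 and 24.3, and with q under 0.05 they were 0, 0, 2 and 39.4. Merging peaks within 3 kb gave 8 body peaks, in 7 members, and 39 in bodies and flanks, at 2.54 times the density. Flanks of 25 and 100 kb gave 54 and 113 peaks at 5.63 and 3.65 times. The median fold of 1.86 became 1.79 in gene bodies alone and 1.91 with p under 0.01. The share with a raised background, 66.2%, became 80% in gene bodies, 75.9% with flanks of 25 kb and 82.7% with p under 0.01. The masked share, 33.8%, became 34.7% in gene bodies and 36.5% with flanks of 25 kb. Of the peak bases inside the windows, 44.0% started a word that occurs again with words of 100 bases, 67.4% with 50 and 28.5% with 150. With alignments of at least 95% identity, 6 of the 15 body peaks matched another member, against 10 at 90% and at 80%. The causes of these moves were not tested beyond the alternatives' own construction.

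All values come from 1 pooled call at an unadjusted p, in which a pileup of 9.0 on the genome-wide background is enough for a peak. Of the 9 peaks in the sparse windows, 8 had pileups of 9.0 to 9.53. No error between libraries and no transcript level can be given, and the placing of reads among near-identical copies was not tested.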
